A study of Mus musculus with 6 samples.

Results

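The 9 genes described here are genes by which cholinergic neurons are recognised: Chat, Slc18a3, Slc5a7, Ache, Lhx8, Gbx1, Isl1, Ecel1 and Prph. They were taken by symbol from the 78298 mouse gene identifiers of the table, all 9 were found, and all 9 passed the filter of a mean of at least 10 normalised counts that left 17391 genes for testing. The tissue was left brain tissue of male mice, 1 polyadenylated RNA library per sample, with 3 wild-type libraries and 3 from mice homozygous for a Top2b-low allele, in which CRISPR/Cas9 had added an auxin-inducible degron tag to the 5′ end of the coding sequence of Top2b, so that every cell of the mouse carries it. Top2b encodes topoisomerase IIβ, which relieves DNA torsion in neurons that no longer divide. Neither genotype received a drug, and the age is given as 10 weeks in one place and 3.5 months in another. Wild-type replicate 3 and Top2b-low replicate 3 carry library names that begin with N22, and the name of the latter ends in dNdN, which is not explained, so that its allele may or may not equal that of the other Top2b-low mice.

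Cholinergic neurons make acetylcholine from choline and acetyl-CoA, load it into vesicles, release it and take the choline back up after the transmitter has been split. In the brain they lie in the basal forebrain, as interneurons in the striatum, in the medial habenula, in nuclei of the pons and in the motor nuclei of the cranial nerves. LIM-homeodomain transcription factors such as Lhx8 and Isl1 set up the forebrain groups, and Isl1 also acts in motor neurons. Several of the 9 genes are not restricted to cholinergic cells: Ache is made by many of their target neurons, Isl1 also by neurons of the hypothalamus, and Prph also by sensory neurons.

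Depth ran from 16963067 to 17413959 reads in the 4 libraries outside N22 and was 28629911 and 35246703 reads in wild-type and Top2b-low replicate 3. The floor used here, 3 reads, corresponds to 1.77 to 3.76 normalised counts. Top2b stood at 2485 to 3160 normalised counts in the wild-type libraries and at 1965 to 2314 in the Top2b-low ones, without overlap. Marker genes of other brain regions differed between libraries beyond genotype. The summed level of 8 cerebellar genes was 336 and 334 normalised counts in the N22 libraries and 16451 to 21538 in the other 4, and 13 Hox genes of the hindbrain were all at 0 in both N22 libraries. Wild-type replicate 3 stood apart in 5 pituitary genes, whose sum was 18309 there and 0 to 1534 in the other 5 libraries. The library with the lowest member values, Top2b-low replicate 3, had the highest sum of 9 striatal (22492) and 6 cortical (27372) neuron genes. The summed level of 11 hypothalamic peptide genes was 114 and 89.9 in Top2b-low replicates 2 and 3 and 1160 to 2153 in the other 4 libraries. The N22 libraries hold 1 sample of each genotype, whereas both libraries low in hypothalamic peptides are Top2b-low.

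The start-site windows of 4 of the 9 genes are shown because these genes carry the 3 patterns described below: Chat and Slc18a3, which sit in 1 locus and yet differ, Slc5a7, which follows Slc18a3, and Lhx8. Each runs 5′ to 3′ on the strand of its gene, from 250 bases before to 50 after the start, in the RefSeq annotation of GRCm38.p6. The windows are chr14:32465860-32466159 (minus strand) for Chat, chr14:32464801-32465100 (minus) for Slc18a3, chr17:54298985-54299284 (minus) for Slc5a7 and chr3:154330511-154330810 (minus) for Lhx8. The deposited table was made on another build, mm39, so these positions serve only to place the sequences. Capitals mark matches to the motifs listed after them.
Chat: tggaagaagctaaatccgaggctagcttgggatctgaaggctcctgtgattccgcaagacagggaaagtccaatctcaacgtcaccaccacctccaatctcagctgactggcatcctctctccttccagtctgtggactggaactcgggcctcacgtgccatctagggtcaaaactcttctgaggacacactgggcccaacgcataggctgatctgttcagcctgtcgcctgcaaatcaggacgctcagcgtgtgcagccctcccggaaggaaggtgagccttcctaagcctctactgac
Slc18a3: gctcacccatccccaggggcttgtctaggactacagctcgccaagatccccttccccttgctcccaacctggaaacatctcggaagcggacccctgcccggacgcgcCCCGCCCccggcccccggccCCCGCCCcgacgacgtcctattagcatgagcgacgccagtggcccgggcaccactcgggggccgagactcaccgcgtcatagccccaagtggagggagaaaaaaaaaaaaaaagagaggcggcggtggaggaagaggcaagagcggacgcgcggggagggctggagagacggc
Slc5a7: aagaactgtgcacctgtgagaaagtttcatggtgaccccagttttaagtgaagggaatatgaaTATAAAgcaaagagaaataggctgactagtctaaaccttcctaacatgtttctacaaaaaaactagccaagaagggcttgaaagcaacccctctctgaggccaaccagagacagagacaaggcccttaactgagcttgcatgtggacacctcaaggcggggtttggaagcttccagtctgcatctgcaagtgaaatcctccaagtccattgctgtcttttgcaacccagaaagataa
Lhx8: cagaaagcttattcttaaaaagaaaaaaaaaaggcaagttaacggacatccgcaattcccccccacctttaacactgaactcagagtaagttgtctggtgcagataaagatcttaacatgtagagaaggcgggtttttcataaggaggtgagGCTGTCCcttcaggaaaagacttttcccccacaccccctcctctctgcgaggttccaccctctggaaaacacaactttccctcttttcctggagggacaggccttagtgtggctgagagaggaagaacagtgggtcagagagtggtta
Windows were found for 8 of the 9 members; Gbx1 had none. Searched on both strands were the LIM-homeodomain core TAATTA, the Isl1 core CTAATG, the left part TTCAGCACC and the right part GGACAGC of the RE1 site of the neuronal repressor REST, the GC box CCCGCCC and the TATA box TATAAA. None of the 8 windows held TAATTA, which occurs in 5.29% of the 32851 windows of the table, and none held CTAATG (7.36%) or TTCAGCACC (0.371%). GGACAGC (6.56% of all windows) was found once, in Lhx8. The GC box (25.6%) stood at 2 places in Slc18a3 and 3 in Ache, 2 of them overlapping. The TATA box (13.6%) stood once in Slc5a7, 187 bases before the start, and once in Prph, 31 bases before it. GC content was 55.7% in Chat, 67.0% in Slc18a3, 44.7% in Slc5a7 and 47.0% in Lhx8, against a median of 52.7% over all windows. These matches describe letters in the windows and were not tested as binding sites.

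All 9 genes had their lowest value in the same library, Top2b-low replicate 3. Among all tested genes that library was the lowest for 21.9%. Against wild-type replicate 3, the other N22 library, each of the 9 was lower, by 16.5% for Slc5a7 to 69.9% for Lhx8, a comparison of 1 library with 1, in which the wild-type library is the one high in pituitary and hypothalamic genes. The part of that content in these differences was not tested. Outside N22 the 2 Top2b-low libraries averaged below the 2 wild-type libraries for 7 of the 9, the exceptions being Chat and Slc18a3. In bulk tissue, fewer cells of a type and less RNA per cell cannot be told apart.

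**Figure D1:**
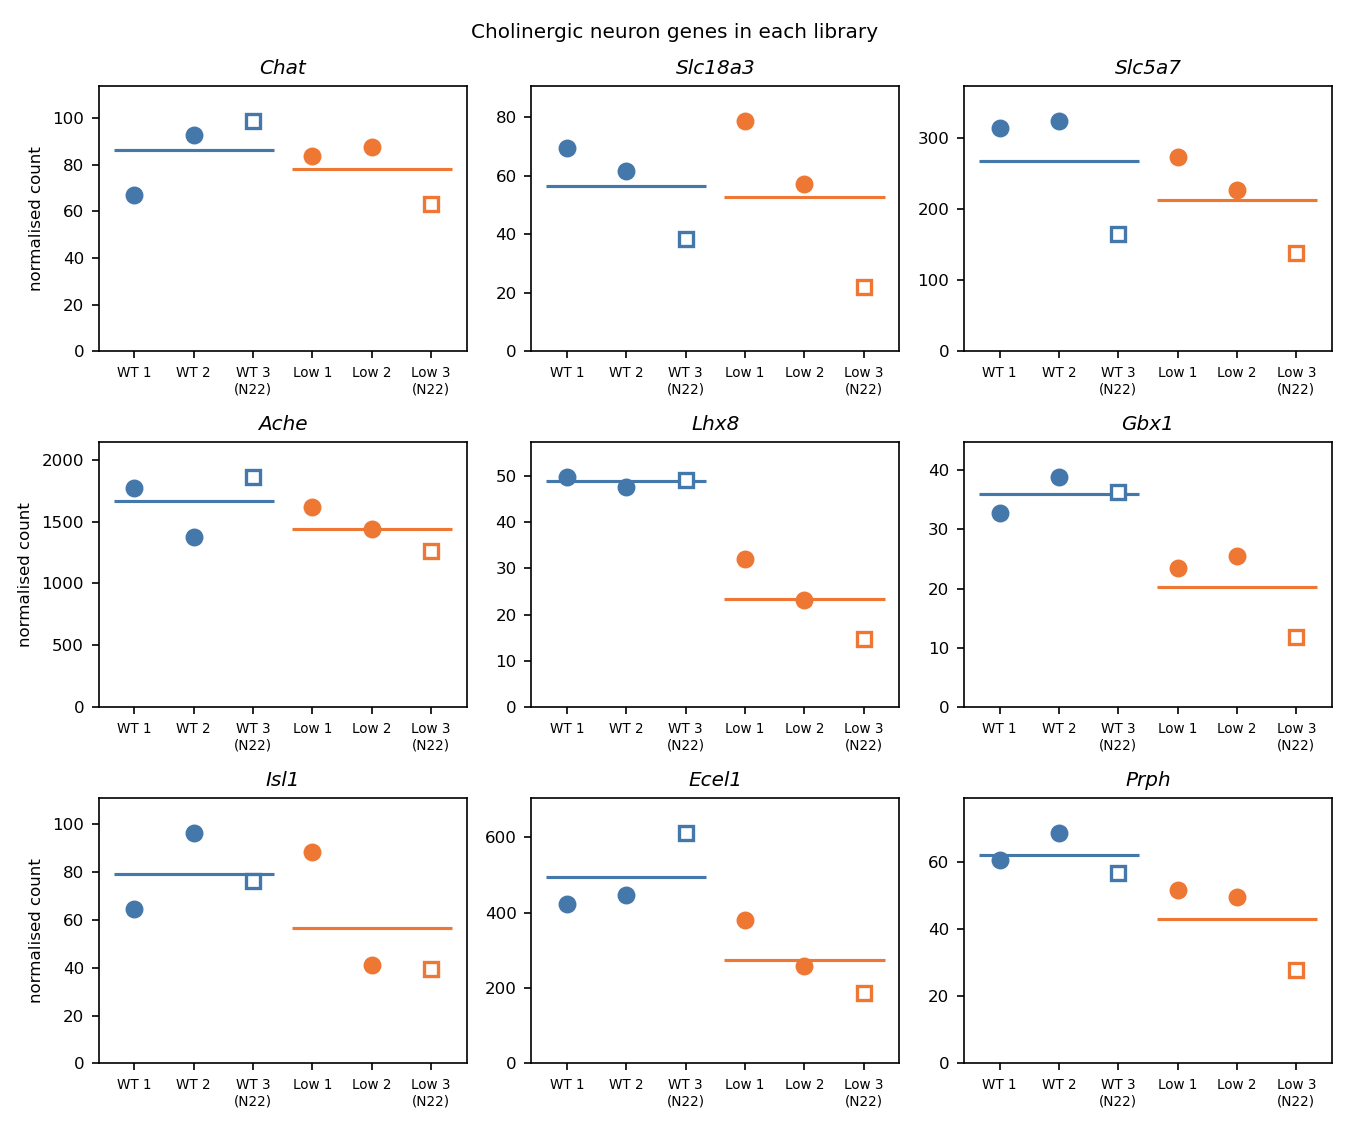
Normalised count (vertical axes, linear from 0) of each of the 9 genes in the 6 libraries; blue marks wild type, orange Top2b-low, open squares the N22 libraries, and lines the means of 3. Top2b-low replicate 3 is the lowest point in every panel, and the Lhx8, Gbx1, Ecel1 and Prph groups do not overlap.

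Chat encodes choline acetyltransferase, the enzyme that makes acetylcholine. Wild-type replicates 1 to 3, in that order here and below, held 66.8, 92.7 and 98.9 normalised counts, and the Top2b-low replicates held 83.7, 87.4 and 63.3. The groups overlap, with 1 low library in each, and the range over the 6 libraries was 1.56-fold. The means were 86.1 ± 17.0 and 78.1 ± 13.0 (SD, n = 3 each), a log2 fold change of -0.13 (SE 0.21; limma, adjusted p = 0.99997). Its 95% interval, -0.63 to 0.37, holds changes in either direction.

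Slc18a3 encodes the vesicular acetylcholine transporter, which fills synaptic vesicles. Wild-type values were 69.2, 61.4 and 38.4, Top2b-low values 78.8, 57.1 and 21.9, resting on 37 to 64 reads per library. Both N22 libraries were below the other 4, and each genotype contributed 1 of them. Between genotypes the log2 fold change was -0.23 with an interval from -1.33 to 0.86. Slc5a7 encodes the high-affinity choline transporter of the nerve terminal, whose uptake limits the rate of acetylcholine synthesis. Wild-type values were 315, 325 and 166, Top2b-low values 273, 227 and 138, again with both N22 libraries lowest. Its log2 fold change between genotypes was -0.32 (SE 0.33, unadjusted p = 0.356). Slc5a7 was lower in the Top2b-low library of each same-numbered pair. Outside N22 both Top2b-low values were below both wild-type values, whichever way they are paired. With the replicate number as a block the SE was 0.10 and the unadjusted p 0.0125, while limma's adjusted p was 0.581. An N22 term in place of the block gave nearly the same, an SE of 0.11 and an unadjusted p of 0.0116 (limma, adjusted p = 0.698). Ache, the acetylcholinesterase that splits the transmitter, had wild-type values of 1768, 1375 and 1863 and Top2b-low values of 1621, 1441 and 1260, with overlapping groups and a log2 fold change of -0.21 (SE 0.14). Of these 4 genes of the transmitter itself, none had non-overlapping genotype groups.

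Lhx8 is the LIM-homeodomain factor of basal forebrain and striatal cholinergic neurons. Its wild-type libraries lay close together at 49.8, 47.6 and 49.1 normalised counts, while the Top2b-low libraries were spread over 32.0, 23.1 and 14.8. Every Top2b-low library was below every wild-type library. The lowest values, 23.1 and 14.8, were in the libraries with the lowest summed hypothalamic peptide level (114 and 89.9). The part of that content in the Lhx8 values was not tested. In reads these were 41, 38 and 69 against 26, 19 and 25, so counting error is large. The means were 48.8 ± 1.11 and 23.3 ± 8.60 (SD, n = 3 each), a mean 52.3% below wild type. The log2 fold change of -1.10 (SE 0.30) had a 95% interval from -1.80 to -0.40 and an unadjusted p of 0.00712, and over all genes limma's adjusted p was 0.99997. An exact permutation test, two-sided, gave p = 0.1, the smallest that 3 against 3 allows.

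Gbx1, a homeobox factor of the developing basal forebrain, had wild-type values of 32.8, 38.9 and 36.3 and Top2b-low values of 23.4, 25.5 and 11.8. The groups did not overlap, on only 19 to 51 reads per library. Its log2 fold change was -0.87 (SE 0.33), with an interval from -1.63 to -0.10. Isl1, the LIM-homeodomain factor shared by motor neurons, forebrain cholinergic neurons and hypothalamic neurons, had wild-type values of 64.4, 96.5 and 76.1 and Top2b-low values of 88.6, 41.3 and 39.6. Top2b-low replicate 1 lay within the wild-type range and replicates 2 and 3 below it, so the groups overlap. These are the 2 libraries low in hypothalamic peptide genes, whose part in the Isl1 values was not tested. The log2 fold change of Isl1 was -0.56 (SE 0.33).

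Ecel1, a membrane metallopeptidase of neurons needed for the branching of motor axons, had wild-type values of 424, 446 and 612 and Top2b-low values of 380, 257 and 187. Its highest value was in wild-type replicate 3, the library with the highest summed hypothalamic peptide level (2153), and its 2 lowest were in the 2 libraries with the lowest (114 and 89.9). Whether that content has a part in the Ecel1 difference was not tested. The groups did not overlap, and the log2 fold change was -0.88 (SE 0.26, unadjusted p = 0.0112). Prph encodes peripherin, an intermediate filament protein of motor and sensory neurons. Wild-type values were 60.7, 68.9 and 56.9, Top2b-low values 51.7, 49.8 and 27.8, separate by a narrow gap, with a log2 fold change of -0.57 (SE 0.27). The summed level of 6 sensory ganglion genes was 205.5 to 217 in wild type and 112 to 178 in Top2b-low mice. Mrgprd was at 0 in all 6 libraries and Scn10a at 3.69 to 13.5. Only 3 genes of this list were tested. Between genotypes 1 of them had a fitted value below 0 (-0.83) and 2 had values above 0, with a median of 0.087. The lower sum was thus not shared by the tested genes of the list. Prph, too, had its 2 lowest values in the 2 libraries with the lowest summed hypothalamic peptide level. The part of that content and of sensory neurons in the Prph values was not tested.

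No member passed limma's test between genotypes, and neither did any other gene (0 of 17391, 0% in either direction, 262 genes, 1.51%, having an unadjusted p under 0.05). The count of genes called was 0 with edgeR's quasi-likelihood test (250 unadjusted) and 0 with DESeq2 (166 unadjusted). The fitted value was below 0 for 9 of 9 members, with a median log2 fold change of -0.56, and for 50.6% of all tested genes, whose median was -0.0021. Wild type and Top2b-low did not overlap for 4 members, Lhx8, Gbx1, Ecel1 and Prph, each lower in Top2b-low mice, while 3.04% of all tested genes were separate and lower, 2.7% separate and higher, and 5.74% separate in either direction. The members were chosen with such differences already known, so these counts describe them and support no statement about cholinergic genes at large. Without Top2b-low replicate 3 the fitted value was below 0 for 7 members and the median was -0.28; in the 4 libraries outside N22 it was 7 members and -0.36. Lhx8 had a log2 fold change of -0.82 in both settings. Without Top2b-low replicate 3, Gbx1 stood at -0.54, Ecel1 at -0.64, Prph at -0.28 and Isl1 at -0.36, and outside N22 they stood at -0.53, -0.47, -0.35 and -0.38 in that order. Slc5a7 ran from -0.64 without wild-type replicate 3 to -0.04 without Top2b-low replicate 3, and stood at -0.36 outside N22. Ache ran from -0.34 without wild-type replicate 2 to -0.11 without Top2b-low replicate 3, and stood at -0.03 outside N22.

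**Figure D2:**
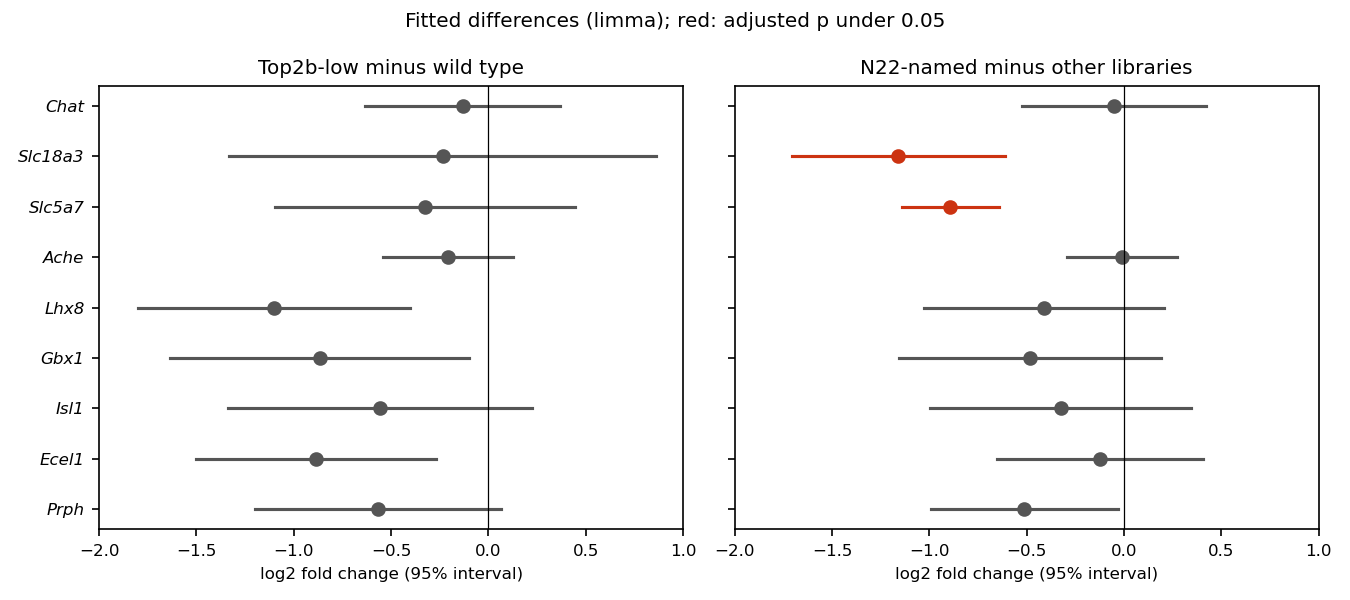
Fitted log2 fold change with its 95% interval (limma) for each gene, Top2b-low minus wild type on the left and N22-named minus other libraries on the right. Red marks an adjusted p under 0.05, reached by Slc18a3 and Slc5a7 on the right; Lhx8 has the lowest value on the left, -1.10.

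The N22-named libraries were compared with the other 4 with genotype in the model. Slc18a3 fell by 1.16 on the log2 scale (SE 0.25; limma, adjusted p = 0.00693) and Slc5a7 fell by 0.89 (SE 0.11; limma, adjusted p = 0.000446). The mean of Slc18a3 was 30.1 normalised counts in the N22 libraries and 66.6 in the others, and that of Slc5a7 was 152 and 285. For both genes the 2 groups of libraries did not overlap, as was so for 26.5% of all tested genes in that direction, 22.8% in the other and 49.3% in either. The exact permutation test of 2 libraries against 4 gave p = 0.133 for each, the smallest that 2 against 4 allows. The other 7 members did not pass; Prph came nearest, with a log2 fold change of -0.51 (SE 0.22, adjusted p = 0.104). Lhx8 (-0.41), Gbx1 (-0.48), Isl1 (-0.32) and Ecel1 (-0.12) had intervals that include 0. Chat (-0.05, interval -0.52 to 0.42) and Ache (-0.01, interval -0.29 to 0.27) had values near 0. So 2 of 9 members were called lower and 0 higher, where limma called 16.7% of all tested genes lower and 11.3% higher, and the share among the members is near that background. An unadjusted p under 0.05 was reached by 3 members and by 40.0% of all tested genes, and a value below 0 by 9 members and 50.5%. Without Top2b-low replicate 3 the value of Slc18a3 was -0.75 and no longer passed (limma, adjusted p = 0.151), while Slc5a7 passed in every setting tried. In that setting only 4 of the 9 members were below 0 and their median was 0.011 instead of -0.41: Chat stood at 0.32, Ache at 0.26, Ecel1 at 0.49, Lhx8 at 0.011 and Gbx1 at 0.022, and Prph at -0.18. The N22 libraries were also the most deeply sequenced and the lowest in cerebellar and hindbrain markers; the part of these in the Slc18a3 and Slc5a7 differences was not tested.

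Chat and Slc18a3 form the cholinergic gene locus, in which the transporter gene lies inside an intron at the start of the Chat gene on the same strand. In the GENCODE vM21 annotation Slc18a3 was inside Chat, 4 of 8 Chat transcripts spanned it and 0 shared exon bases with it. Between the start-site windows printed above lie 759 bases of GRCm38.p6. The 2 genes had among the least alike profiles over the libraries. The ratio of Chat to Slc18a3 normalised counts was 0.965, 1.51 and 2.57 for the wild-type libraries, and 1.06, 1.53 and 2.89 for the Top2b-low ones. It was higher in both N22 libraries than in the other 4, and same-numbered libraries of the 2 genotypes stood next to each other in order. The size of the ratio depends on gene length and is not read here; only its spread between libraries is. The ratio of Slc5a7 to Chat was 4.71, 3.50 and 1.68 for wild type, then 3.26, 2.60 and 2.19 for Top2b-low, again lower in the N22 libraries. These ratios were looked at after the values had been seen and were not tested. Whether reads of the shared region were assigned by strand or split between the genes is not given in the sources used here.

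**Figure D3:**
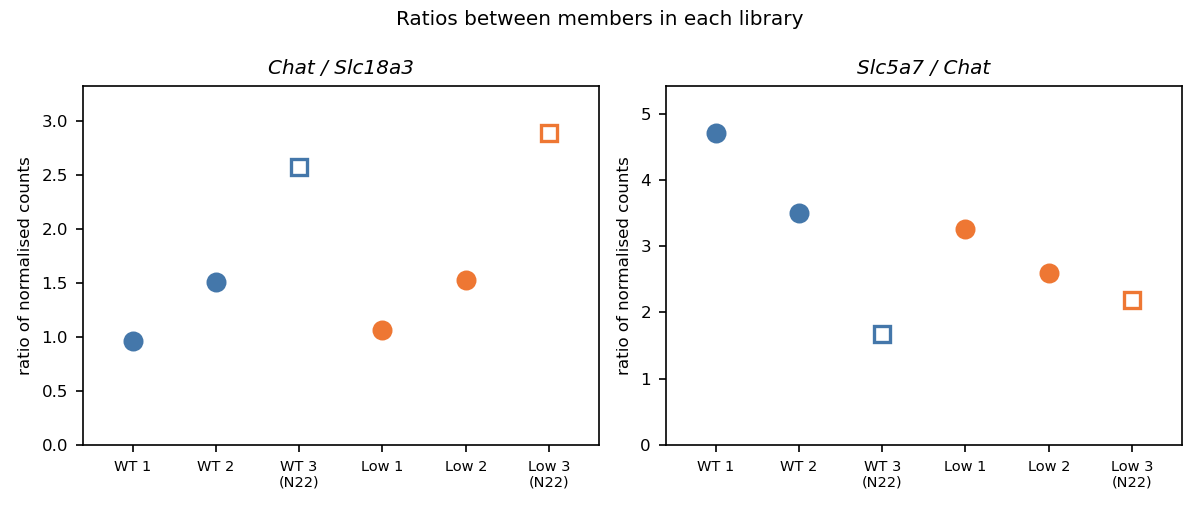
Ratio of normalised counts (vertical axes, linear from 0) of Chat to Slc18a3 and of Slc5a7 to Chat in each library; blue marks wild type, orange Top2b-low and open squares the N22 libraries. Both open squares stand above the other points on the left (2.57 and 2.89) and below them on the right (1.68 and 2.19).

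The profiles of the 9 genes over the 6 libraries were compared after centring each on its own mean, by the root-mean-square difference in log2 units. The most alike members were Gbx1 and Prph (0.18), Ecel1 and Lhx8 (0.20), and Gbx1 and Lhx8 (0.23). Ache lay nearest Chat (0.26), and Slc18a3 nearest Slc5a7 (0.27). The least alike were Ecel1 and Slc18a3 (0.60), followed by Chat and Slc18a3 (0.58). The profiles show Slc18a3 and Slc5a7 low in both N22 libraries, Chat and Ache with the smallest spread though also lowest in Top2b-low replicate 3, and Lhx8, Gbx1, Ecel1 and Prph lower in the Top2b-low libraries.

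**Figure D4:**
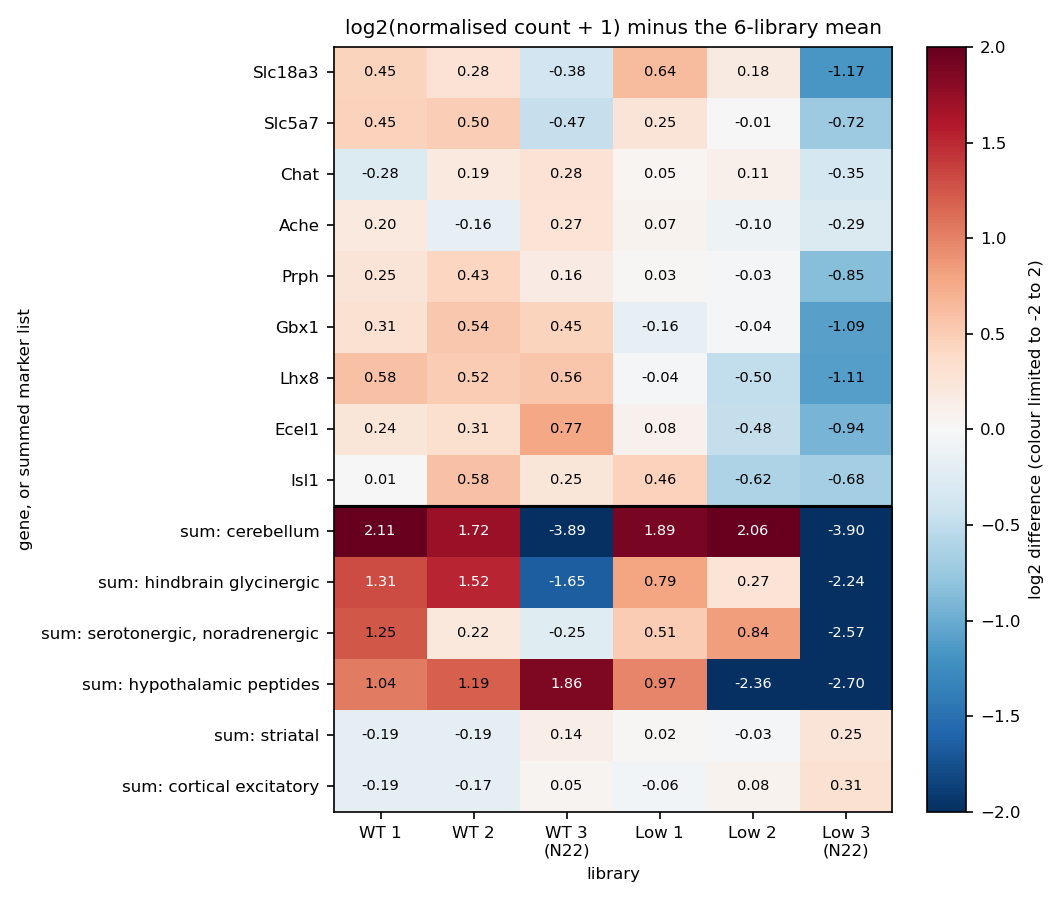
log2(normalised count + 1) minus the 6-library mean for the 9 genes (above the line) and for summed marker lists (below it), libraries in columns; colour is limited to differences of 2. Slc18a3 and Slc5a7 are negative in both N22 columns, where the cerebellar and hindbrain sums are lowest. Lhx8, Ecel1, Isl1 and, by a narrow margin, Prph are lowest in Top2b-low replicates 2 and 3, where the hypothalamic sum is lowest.

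For the 7 members that spanned more than 1 log2 unit over the libraries, the most similar profiles among well-measured genes were listed. Slc5a7 was nearest to Nefh (0.08), the heavy neurofilament subunit of large projection neurons, with wild-type values of 3900, 4018 and 1898 and Top2b-low values of 3266, 3098 and 1717, and then to Xkr6 (0.08) and Tnfrsf12a (0.09). Slc18a3 was nearest to Ntn1 (0.14), the axon guidance protein netrin-1, Ttll3 (0.14) and Calb2 (0.15), the calcium-binding protein calretinin. Lhx8 lay nearest Igsf1 (0.15), Scn9a (0.15), a voltage-gated sodium channel, and Zim1 (0.17). Gbx1 lay nearest Agt (0.14), Prph (0.18) and Zfp92 (0.22), and Prph nearest Gpr165 (0.12), Jpt2 (0.12) and Agt (0.13). For Isl1 the nearest were Esr1 (0.15), the oestrogen receptor α gene, Cited1 (0.16) and Esyt3 (0.19), and for Ecel1 Magel2 (0.11), Gpx3 (0.16) and Igsf1 (0.17). Each likeness rests on 6 libraries, of which 2 stand apart.

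Whether the genotype difference itself differed between the N22 pair and the other 4 libraries was tested with an interaction term. No member passed, and 8 of 9 had a fitted value below 0, as did 48.4% of all tested genes. An unadjusted p under 0.05 was reached by 2 members and 3.59% of all genes. Ecel1 came nearest (log2 difference -1.23, SE 0.29; limma, adjusted p = 0.741), followed by Ache (-0.53, SE 0.20; adjusted p = 0.997). In this model limma called 3 genes lower (0.0173%) and 1 higher (0.00575%). Its residual spread comes from the 4 libraries outside N22 alone. The Top2b-low side of the N22 pair is replicate 3 only, where all 9 members were lowest. The wild-type side is wild-type replicate 3 only, which was the highest library for 3 of the 9, Ecel1, Ache and Chat. The counts of members here rest on these 2 single libraries and are no separate result. Leaving out Top2b-low replicate 1 or 2, which leaves 1 residual degree of freedom, brought Ecel1 past the threshold (-0.95 with limma adjusted p = 0.0416, and -1.51 with adjusted p = 0.000442).

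Of 9 other genes that handle acetylcholine 0 passed the test between genotypes. In the N22 libraries 5 were called lower and 0 higher, beside 16.7% and 11.3% of all tested genes. The count was 1 (Bche) without Top2b-low replicate 3, beside 7.68% of all tested genes. Colq, the collagen tail that anchors acetylcholinesterase, fell by 1.44 on the log2 scale (SE 0.26; limma, adjusted p = 0.00302), from wild-type values of 49.8, 62.7 and 25.6 and Top2b-low values of 52.9, 42.5 and 13.0. Bche, butyrylcholinesterase, fell by 0.74 (SE 0.12; limma, adjusted p = 0.00151), Chka, choline kinase, by 0.32, and Acly, the ATP citrate lyase that supplies acetyl-CoA, by 0.23. Slc10a4, a vesicular transporter of cholinergic and monoaminergic terminals, had the smallest unadjusted p between genotypes (0.152). Its wild-type values were 141, 105 and 102 and its Top2b-low values 103, 104 and 36.7, lowest in the same library as the 9 members, and it was the fifth gene called lower in the N22 libraries (-0.86; limma, adjusted p = 0.0292). That call rests on Top2b-low replicate 3, without which the value was -0.25 (limma, adjusted p = 0.545).

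Receptors for acetylcholine showed no genotype calls either, and in bulk tissue they were measured over all cells rather than in cholinergic cells alone. Of the 5 muscarinic receptor genes, Chrm1, the main cortical and hippocampal subtype, rose in the N22 libraries by 0.29 on the log2 scale (SE 0.07; limma, adjusted p = 0.0110). Chrm2, the presynaptic inhibitory receptor, had a log2 value of -0.29 between genotypes (unadjusted p = 0.0592) and -0.24 in the N22 comparison (adjusted p = 0.0714). Between genotypes Chrm3 stood at 0.17, Chrm4 at 0.16 and Chrm5 at -0.40. Of 16 nicotinic subunit genes 11 were tested; Chrnb2, the common brain β subunit, fell in the N22 libraries by 0.22 and Chrnb3 rose by 0.54 (limma, adjusted p = 0.0280 and 0.0383). Chrnd and Chrng, muscle subunits, were at 0 in all 6 libraries. Among 6 genes for nicotinic receptor partners, the chaperone Ric3 fell in the N22 libraries by 0.26 (limma, adjusted p = 0.0106), and none passed between genotypes. In the N22 comparison 1 of 5 muscarinic genes was called higher and 0 lower. Called higher and lower were 1 and 1 of the 11 nicotinic subunit genes, and 0 and 1 of the 6 partners. Of all tested genes 11.3% were called higher and 16.7% lower. Without Top2b-low replicate 3, which leaves 1 N22 library, none of Chrm1, Chrnb2, Chrnb3 and Ric3 was called, and without wild-type replicate 3 only Ric3 was; the directions did not turn.

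The low-affinity receptor for nerve growth factor marks basal forebrain cholinergic neurons in the adult brain. Ngfr, the p75 receptor, had wild-type values of 118, 113 and 105 and Top2b-low values of 121, 104 and 37.9, and it fell in the N22 libraries by 0.84 (SE 0.27; limma, adjusted p = 0.0387). Top2b-low replicate 3 stood low and the other 5 libraries, the wild-type N22 library among them, were close together. Without Top2b-low replicate 3 the value was -0.14 and was not called (limma, adjusted p = 0.718). Of 7 neurotrophin and receptor genes 2 were called lower in the N22 libraries, beside 16.7% of all tested genes, and 0 between genotypes. The other one called was Ntrk3, which fell by 0.25. None of the 7 was called without Top2b-low replicate 3. The genotype groups of Ngfr overlapped.

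Among 13 tested transcription factors of the ventral forebrain and the LIM family, Nkx2-1, which specifies the region from which these cholinergic neurons arise and is also expressed in the hypothalamus, had the smallest unadjusted p between genotypes. Its wild-type values were 61.9, 55.1 and 65.4 and its Top2b-low values 29.5, 13.4 and 13.0 (log2 fold change -1.75, SE 0.34; unadjusted p = 0.00108, limma adjusted p = 0.99997). The groups did not overlap, and the 2 lowest libraries were again those low in hypothalamic peptides. In the N22 comparison 5 factors were called lower and 4 higher, beside 16.7% and 11.3% of all tested genes, and 4 and 1 without Top2b-low replicate 3. Zic1, shared by cerebellar granule cells and septal neurons, fell by 2.23 and Lmo4 rose by 0.53. Lmo4 encodes a LIM-only protein that competes with LIM-homeodomain factors for their cofactor.

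Cranial motor neuron genes were thinly covered. Of 12 such genes 6 passed the filter, and Mnx1, a motor neuron factor of the spinal cord, was at 0 in all 6 libraries. Of the 6 tested, 2 were called lower in the N22 libraries, Nefh (log2 value -0.97, SE 0.06; limma, adjusted p = 5.16e-06) and Tbx3 (-0.74), beside 16.7% of all tested genes, and 0 between genotypes. Without wild-type replicate 3 Tbx3 stood at -0.40 and was not called (limma, adjusted p = 0.363). Of 7 medial habenula genes, 1 was called higher in the N22 libraries (Chrnb3) and 0 lower, beside 11.3% and 16.7% of all tested genes.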

How the data were processed

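The deposited signal per gene and library was a normalised count, made with RSEM on mm39 per the submitters' processing notes. The aligner, annotation, versions and use of strand were not given in the sources used here. Every value was a whole number of equal steps (100% of values, tolerance 1e-06 reads), so whole counts, called reads, were recovered; they may be rounded estimates. Groups and replicate numbers came from the titles. Symbols were taken from GENCODE vM21 (51498 identifiers, at least 99.4% of reads).

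Genes with a mean of at least 10 were compared on log2(normalised count + 1), which understates the change of low genes, with limma 3.58.1 (trend, two-sided, Benjamini-Hochberg over 17391 genes, threshold 0.05) in R 4.3.3, without covariates between genotypes and with genotype for N22. edgeR 4.0.16 and DESeq2 1.42.0 on recovered reads, other pseudocounts and filters, TMM, single replicates left out, an N22 term, the libraries outside N22, array weights and a replicate block were alternatives; the block and outside-N22 fits of edgeR and DESeq2, and the fits of other named genes without either N22 library, were chosen after seeing the data. Fits were tested on simulated data. Single genes also had exact permutation tests (scipy 1.17.1). The members and lists were chosen with earlier results of these data known.

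Named were the 9 members, Top2b, all muscarinic receptors, up to 4 genes of each list by smallest unadjusted p, and, for members spanning over 1 log2 unit, the 3 nearest profiles among protein-coding genes with a mean of at least 50; others (such as Mnx1, Scn10a, Mrgprd, Chrnd, Chrng) were chosen after their values were seen. Deviations from the group means of same-numbered libraries correlated at 0.33, 0.35 and 0.68, each above 0.1, and the numbers served as a block in alternative fits. This rests on the values alone and does not establish pairing. Outside N22, pairs of unlike number passed 0.1 as well (0.37 and 0.24). The value of 0.68 belongs to the N22 libraries, which stand apart from the rest, so the criterion cannot separate pairing from that split. Replicates were treated as separate mice because the series text gives 3 animals for each genotype. Replicates within a group differed by more than sampling noise (chi-square per degree of freedom 4.16 or more).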

Additional observations from a re-analysis of the deposited data

How the results depend on the processing

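For the genotype comparison, 196 of 205 single-gene values under the alternatives kept their direction and side of the threshold. The replicate block changed no call of a member: the lowest limma adjusted p with it was 0.473, and 0 genes were called, as without it. The direction of Chat and Slc18a3 between genotypes depended on the libraries used. Chat turned positive without Top2b-low replicate 3 (leaving out single replicates gave -0.30 to 0.0098), with array weights (0.15) and outside N22 (0.12 with limma, 0.11 with DESeq2 and 0.11 with edgeR), and Slc18a3 without Top2b-low replicate 3 (range -0.61 to 0.29) and outside N22 (0.040, 0.059 and 0.059). Genotype calls over all genes were 0, or 0 to 1 with single replicates left out, apart from DESeq2 with the N22 term (15), with the replicate block (15) and outside N22 (8), none of them a member. In the N22 comparison the calls were 4864, and 1711 to 4576 with single replicates left out, lowest without either replicate 3, which leaves 1 N22 library. Directions turned there for Ache with TMM (0.0074) and edgeR (0.011), and with single replicates left out Chat (-0.43 to 0.32), Ache (-0.28 to 0.26), Lhx8 (-0.84 to 0.011), Gbx1 (-0.99 to 0.022) and Ecel1 (-0.74 to 0.49), the upper ends without Top2b-low replicate 3, where 5 of the 9 were above 0 and Slc18a3 (-0.75; limma, adjusted p = 0.151) was no longer called. With Top2b-low replicate 2 left out Chat was at 0.015, without wild-type replicate 1 Ache at 0.03, and without Top2b-low replicate 1 Ache at 0.06 and Ecel1 at 0.08. The interaction called 4 genes, 2 with a pseudocount of 5, 9 with a mean of at least 50, 1 with edgeR, 23 with DESeq2, 58 with the replicate block, 23 to 117 with single replicates left out and 4824 with no filter; the cause was not tested. Slc5a7 there ran from -0.032, without Top2b-low replicate 2, to 0.23. The DESeq2 and edgeR fits with the block and outside N22 were added after seeing the data. Gbx1, Lhx8 and Slc18a3 rest on 19 to 69 reads in each library, which limits their precision; the mean of at least 50 left out Lhx8 and Gbx1.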
